A study of Mus musculus with 12 samples.

Results

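The flavin monooxygenase family was followed in mouse bone stroma through 4 genes, Fmo1, Fmo2, Fmo4 and Fmo5, out of 19937 genes that the array's annotation table names singly. They were chosen by symbol, and where a gene has several probe sets the one with the highest mean over all arrays was to be used. Each of the 4 genes has 1 probe set, so that step made no choice. The family was picked with earlier results of these data known, among them a rise of Fmo2 in osteoblasts of tumor-bearing mice, and that rise is given here as a description of size and spread rather than as independent support.

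RNA was measured on single microarrays in 2 cell types that had been sorted from long bones of NOD SCID females, immunodeficient mice, with 3 biological replicates per group and 12 arrays in all. The groups were osteoblasts of tumor-bearing mice, osteoblasts of tumor-free mice, endothelial cells of tumor-bearing mice and endothelial cells of tumor-free mice. Tumor-bearing mice had been injected by the intracardiac route with 200000 MDA-MB-231 scp1833 cells, a bone-seeking human breast cancer line, and tumor growth in the long bones was followed for about 2 weeks. The labels state no ages. The sort excluded GFP, CD45 and TR119 in every group; it took osteoblasts as CD51+ cells lacking SCA1 and CD31, and endothelial cells as those positive for SCA1 and CD31 alike. The labels do not say how many mice stand behind each array or whether arrays have mice in common, and p-values therefore cover only the variation among these 12 samples.

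Flavin monooxygenases are enzymes of the endoplasmic reticulum that carry a flavin cofactor, take electrons from NADPH and use molecular oxygen to oxidise nitrogen and sulfur atoms of drugs, dietary amines and other small molecules. FMO1 is known from kidney and liver, and in mouse work it converts hypotaurine to taurine. FMO2 is known as the main form of the lung in most mammals. FMO5 differs from the others in oxidising ketones to esters, and the substrates of FMO4 are little known. In the mouse genome Fmo4, Fmo1 and Fmo2 are neighbouring protein-coding genes of chromosome 1, in that order, with 1 long non-coding RNA gene, Gm32197, between Fmo1 and Fmo2, while Fmo5 lies apart from them on chromosome 3.

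Promoter windows from RefSeq (GRCm38.p6, 250 bases before to 50 after an annotated start) were found for 3 of the 4 genes, Fmo2, Fmo4 and Fmo5. Those of Fmo2 and Fmo5 are shown because the first gene had the widest range over the arrays and the second a narrow one. Fmo2 has 2 windows, chr1:162898709-162899008 and chr1:162898444-162898743, both on the minus strand, and that of Fmo5 is chr3:97628769-97629068 on the plus strand. All are written 5′ to 3′, with motif matches in capitals.
Fmo2 window 1: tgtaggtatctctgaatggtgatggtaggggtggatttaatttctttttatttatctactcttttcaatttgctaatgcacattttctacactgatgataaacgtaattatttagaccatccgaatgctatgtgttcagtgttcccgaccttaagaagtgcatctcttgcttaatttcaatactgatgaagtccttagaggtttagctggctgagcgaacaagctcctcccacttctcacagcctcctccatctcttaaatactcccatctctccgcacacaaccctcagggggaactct
Fmo2 window 2: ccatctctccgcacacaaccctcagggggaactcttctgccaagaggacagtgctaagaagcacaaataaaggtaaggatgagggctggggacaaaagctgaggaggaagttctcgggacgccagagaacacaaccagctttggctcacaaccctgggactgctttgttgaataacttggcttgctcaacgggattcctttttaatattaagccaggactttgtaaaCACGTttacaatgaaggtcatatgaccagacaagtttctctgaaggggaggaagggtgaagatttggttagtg
Fmo5: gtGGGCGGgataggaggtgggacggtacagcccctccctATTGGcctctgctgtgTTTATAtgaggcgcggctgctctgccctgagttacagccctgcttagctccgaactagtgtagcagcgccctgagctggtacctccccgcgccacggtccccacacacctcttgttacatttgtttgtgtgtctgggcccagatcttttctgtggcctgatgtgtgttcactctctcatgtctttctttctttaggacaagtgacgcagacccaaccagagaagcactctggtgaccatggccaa

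Motifs were searched on both strands: the TATA box (TATAAA), the CCAAT box (spelled as named), the GC box (GGGCGG), the AP-1 motif (TGANTCA), the antioxidant response core (TGACNNNGC), the aryl hydrocarbon receptor core (GCGTG) and the hypoxia response core (ACGTG). Window 1 of Fmo2 held 0 matches and window 2 held 1, to ACGTG, which 19.6% of 32851 promoter windows of that length hold. The window of Fmo5 held matches to the TATA, CCAAT and GC box letters once each, which are found in 13.6%, 37.4% and 35.7% of windows. Relative to the window's start, the TATA match lay at -195 and the CCAAT match at -211, both on the opposite strand, and the GC match at -248. The window of Fmo5 lies inside the annotated gene, which spans chr3:97609938-97655287. Window 2 of Fmo2, which holds the ACGTG match, likewise lies inside its annotated gene, chr1:162874317-162898758. GC content was 41.3% and 47.7% in the windows of Fmo2 and 56.0% in that of Fmo5. A match is a description of letters, and its absence says nothing of any factor.

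Fmo1 stood high among the probe sets of every array, Fmo2 ranged from the middle to the top, Fmo5 lay near the middle and Fmo4 was low. As percentiles among the probe sets of its own array, Fmo1 lay between 86.4 and 96.1 in osteoblasts of tumor-bearing mice, against 89.1 to 90.7 in tumor-free ones, and between 97.9 and 98.5 in tumor-bearing endothelial cells, against 97.0 to 97.2 in tumor-free ones. Fmo2 lay between 90.6 and 96.2 in osteoblasts of tumor-bearing mice, against 42.4 to 65.4 in tumor-free ones, and between 97.9 and 98.2 in tumor-bearing endothelial cells, against 73.6 to 95.2 in tumor-free ones. Over the 12 arrays Fmo5 lay between percentiles 49.1 and 65.1 and Fmo4 between 21.96 and 38.7. On the log2 scale Fmo1 ranged from 7.62 to 10.49 over the 12 arrays and Fmo2 from 5.08 to 10.38. Fmo5 ranged from 5.23 to 6.06 and Fmo4 from 3.86 to 4.64, beside array medians of 5.21 to 5.41 over all 34760 probe sets. Levels of different probe sets are not comparable with each other as amounts of RNA, and here they place each gene against its own array only.

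**Figure D1:**
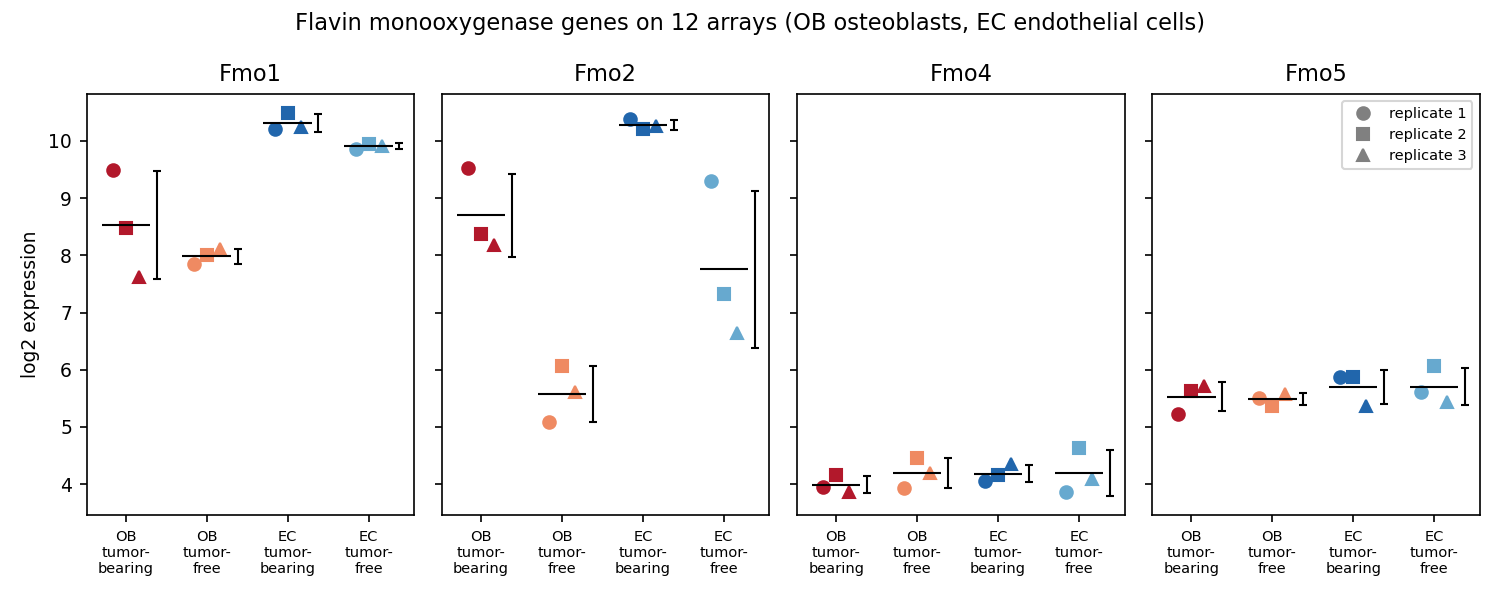
Each point is 1 array (y axis log2 expression, replicates 1 to 3 by symbol), with the group mean as a line and the SD as a bar; OB stands for osteoblasts and EC for endothelial cells. Fmo2 lies between 8.18 and 9.53 in osteoblasts of tumor-bearing mice and between 5.08 and 6.06 in tumor-free ones, and 1 tumor-free endothelial array stands at 9.30 while the other two lie at 7.32 and 6.65.

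Markers of both sorted cell types differed in the direction of the labels, and markers of other cell types were present in the osteoblast arrays too. Of 10 endothelial markers 10 were lower in osteoblasts than in endothelial cells of both tumor-bearing and tumor-free mice, and of 8 osteoblast markers tested 8 were higher (limma, adjusted p under 0.05). Of 8 chondrocyte markers 8 were higher in osteoblasts of tumor-bearing mice, with a median log2 difference of 5.33 beside 3.28 for the osteoblast markers, and 7 in those of tumor-free mice (3.08 beside 3.48). Of 7 tested hematopoietic markers 0 passed in tumor-bearing mice (median 0.96) and 2 were higher in tumor-free osteoblasts (median 2.31), although the sort excluded CD45. Tumor-free osteoblast arrays correlated with each other at 0.867 to 0.908 and those of the other groups at 0.946 to 0.969. Over all genes tested 14.9% passed between the cell types in tumor-bearing mice and 31% in tumor-free mice. With 3 arrays a group, precision is limited.

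The first comparison asked how the family differed in osteoblasts when a tumor was present. Fmo2 was far higher in tumor-bearing mice, with no clear difference for Fmo1 and Fmo5. Fmo2 stood at 9.53, 8.37 and 8.18 in osteoblasts of tumor-bearing mice, against 5.08, 6.06 and 5.61 in those of tumor-free mice. All 3 tumor-bearing arrays lay above all 3 tumor-free ones, with replicate 1 the highest of the tumor-bearing arrays and replicate 1 also the lowest of the tumor-free ones. The means were 8.70 ± 0.73 and 5.58 ± 0.49 (SD, n = 3 each), a log2 difference of 3.11 ± 0.58 (SE, 95% interval 1.83 to 4.40) or 8.65-fold, with adjusted p = 0.017 by limma. It ranked 7 among 12430 genes by size of rise.

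Over all genes tested 4.59% passed in this comparison and 4.01% passed as higher in tumor-bearing mice. Of the 4 family genes 3 could be tested and 1 of these, Fmo2, passed. The arrays of the groups did not overlap, with tumor-bearing mice higher, for 12.3% of genes. The call of Fmo2 ended without tumor-bearing osteoblast replicate 1 or 2 (log2 differences 2.69 and 3.27, adjusted p = 0.056 for both), with array quality weights (2.76, adjusted p = 0.055), with weights per group (adjusted p = 0.126) and when these 6 arrays were fitted alone (adjusted p = 0.103). In bulk samples fewer cells that express a gene and less RNA per cell cannot be told apart.

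Fmo1, the enzyme of hypotaurine oxidation, varied among osteoblasts of tumor-bearing mice more than between the conditions. It stood at 9.50, 8.48 and 7.62 in osteoblasts of tumor-bearing mice, against 7.85, 8.01 and 8.11 in those of tumor-free mice. The tumor-free arrays lay within the span of the tumor-bearing ones. The log2 difference was 0.55 ± 0.35 (SE, 95% interval -0.23 to 1.33) and did not pass (adjusted p = 0.359 by limma). Its SD was 0.94 in tumor-bearing and 0.13 in tumor-free osteoblasts (n = 3 each), and the difference was 0.06 without tumor-bearing replicate 1 and 1.00 without tumor-bearing replicate 3.

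Fmo5 averaged 5.53 ± 0.26 in osteoblasts of tumor-bearing mice and 5.49 ± 0.11 in those of tumor-free mice (SD, n = 3 each). Its difference of 0.04 had a 95% interval of -0.42 to 0.51. Fmo4 was below the filter on dim genes, above the array median on fewer than 3 arrays, and was not tested. It averaged 3.99 ± 0.15 and 4.20 ± 0.26 in the same groups, and the arrays overlapped.

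The second comparison set endothelial cells of tumor-bearing mice against those of tumor-free mice. Fmo2 had its higher values in tumor-bearing mice here too, but the difference did not pass, with a wide spread among the tumor-free arrays. Fmo2 was at 10.38, 10.21 and 10.25 on the tumor-bearing endothelial arrays, against 9.30, 7.32 and 6.65 on the tumor-free ones. The groups did not overlap, and tumor-free replicate 1 lay closer to the tumor-bearing arrays than to its own group. The means were 10.28 ± 0.09 and 7.75 ± 1.38 (SD, n = 3 each). The log2 difference of 2.53 ± 0.58 (SE, 95% interval 1.24 to 3.81), or 5.76-fold, ranked 3 among the rises of 12430 genes and did not pass the threshold (adjusted p = 0.249 by limma).

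In that comparison 0.0241% of genes passed, 3 in all, and 0 of the 3 tested family genes. By array quality weights 1 of them passed, where 449 genes did. In the main fit 1 family gene had an unadjusted p under 0.05 by limma, and the share of all genes that did was not counted. Without tumor-free endothelial replicate 1 the difference of Fmo2 was 3.30 and passed (adjusted p = 0.01), and without replicate 3 it was 1.97 (adjusted p = 0.752). It also passed without the tumor-free arrays numbered 1 of either cell type (3.30, adjusted p = 0.00651). That setting was chosen after seeing the data and drops the tumor-free endothelial array with the highest Fmo2, so the larger difference follows from the choice. With array quality weights the difference of Fmo2 was 2.92 (adjusted p = 0.012).

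For Fmo1 the endothelial arrays read 10.20, 10.49 and 10.24 in tumor-bearing mice, against 9.85, 9.95 and 9.91 in tumor-free mice. The groups did not overlap, as for 7.84% of genes with tumor-bearing mice higher. The log2 difference was 0.41 ± 0.35 (SE, 95% interval -0.37 to 1.19) and did not pass (adjusted p = 0.978 by limma). The error comes from the spread shared by all groups, which for this gene was widest in osteoblasts of tumor-bearing mice, and fitting the 6 endothelial arrays alone gave adjusted p = 0.244. Fmo5 averaged 5.70 ± 0.29 in tumor-bearing and 5.70 ± 0.32 in tumor-free mice, and Fmo4 4.19 ± 0.15 and 4.19 ± 0.40 (SD, n = 3 each), so that neither gene showed a difference beyond its spread.

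Whether the tumor difference itself differed between the cell types was tested as the osteoblast difference minus the endothelial one. For Fmo2 it was 0.59 ± 0.82 (SE, 95% interval -1.23 to 2.40, adjusted p = 0.742 by limma), and it changed sign to -0.18 without tumor-free endothelial replicate 1. For Fmo1 it was 0.14 (95% interval -0.96 to 1.24) and for Fmo5 0.05 (-0.61 to 0.70). Of the 3 genes 0 passed, where 0.209% of all genes did, and 0 had an unadjusted p under 0.05. With array quality weights or weights per group 0 passed too. These intervals allow differences of more than 1 log2 unit either way for Fmo2.

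**Figure D2:**
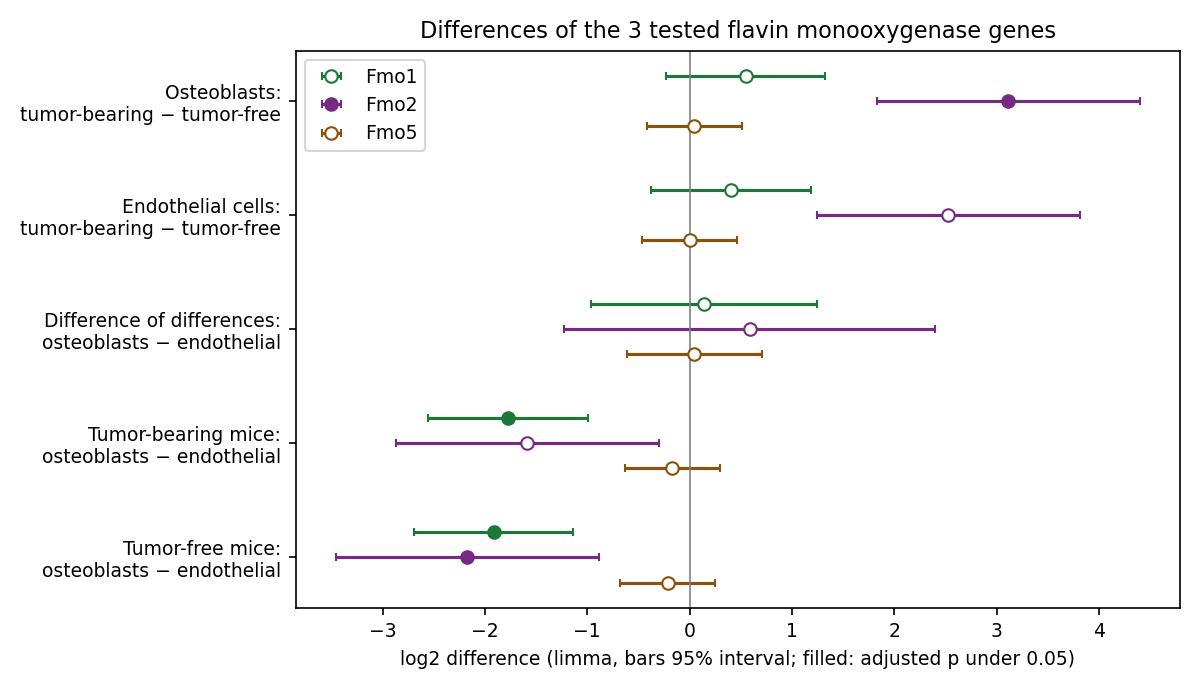
Log2 differences (x axis) of Fmo1, Fmo2 and Fmo5 in the 5 comparisons (rows), from limma, with 95% intervals as bars and filled points where the adjusted p is under 0.05. Fmo2 stands at 3.11 and 2.53 in the osteoblast and endothelial tumor comparisons, Fmo1 at -1.78 and -1.92 in the cell type comparisons, and Fmo5 between -0.21 and 0.05.

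Between cell types, Fmo1 was lower in osteoblasts than in endothelial cells whether or not a tumor was present. In tumor-bearing mice it averaged 8.53 ± 0.94 in osteoblasts and 10.31 ± 0.16 in endothelial cells (SD, n = 3 each), a log2 difference of -1.78 ± 0.35 (SE) or 3.43-fold (adjusted p = 0.00565 by limma). In tumor-free mice it averaged 7.99 ± 0.13 in osteoblasts and 9.90 ± 0.05 in endothelial cells, a difference of -1.92 ± 0.35 or 3.77-fold (adjusted p = 0.00307 by limma). The arrays of the cell types did not overlap in either case. The difference passed in 12 of 12 fits with 1 array left out and in all 11 other settings tried, in both comparisons.

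Fmo2 was lower in osteoblasts of tumor-free mice, and less firmly so than Fmo1. It averaged 5.58 ± 0.49 in these osteoblasts and 7.75 ± 1.38 in endothelial cells (SD, n = 3 each), a log2 difference of -2.17 ± 0.58 (SE) or 4.50-fold (adjusted p = 0.0188 by limma). It was -1.40 (adjusted p = 0.039) without tumor-free endothelial replicate 1. In a setting chosen after seeing the data, without the tumor-free arrays numbered 1 of either cell type, it was -1.15 (adjusted p = 0.0732). It did not pass with array quality weights (-1.67, adjusted p = 0.116), with weights per group (adjusted p = 0.0836) or with the 6 arrays alone (adjusted p = 0.077). In tumor-bearing mice the difference was -1.59 ± 0.58 or 3.00-fold and did not pass (adjusted p = 0.102), although the arrays of the cell types did not overlap. It passed without tumor-free endothelial replicate 1 (adjusted p = 0.0161), without the tumor-free arrays numbered 1 of either cell type (adjusted p = 0.0093), with array quality weights (-1.83, adjusted p = 0.0124) and with those 6 arrays alone (adjusted p = 0.0128).

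Of the 3 tested family genes 2 were lower in osteoblasts of tumor-free mice, where 31% of all genes passed and 18.2% passed as lower, and 1 in tumor-bearing mice, where 14.9% passed and 8.13% as lower. Arrays without overlap and lower in osteoblasts were found for 23.1% of genes in tumor-free and 19.5% in tumor-bearing mice. Fmo5 differed by -0.17 (95% interval -0.63 to 0.30) in tumor-bearing and -0.21 (-0.68 to 0.25) in tumor-free mice. Fmo4 differed by -0.19 and 0.00 and was not tested. The tumor and cell type comparisons share arrays, so their values for a gene are not independent of each other.

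In order of level, Fmo1 was highest in endothelial cells of tumor-bearing mice, followed by endothelial cells of tumor-free mice, osteoblasts of tumor-bearing mice and osteoblasts of tumor-free mice. The osteoblast groups overlapped. For Fmo2 the order was endothelial cells of tumor-bearing mice, osteoblasts of tumor-bearing mice, endothelial cells of tumor-free mice and osteoblasts of tumor-free mice. There the osteoblasts of tumor-bearing mice and the endothelial cells of tumor-free mice overlapped, with a step of 0.94 between means beside an SD of 1.38. All neighbours in the order of Fmo4 and of Fmo5 overlapped.

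**Figure D3:**
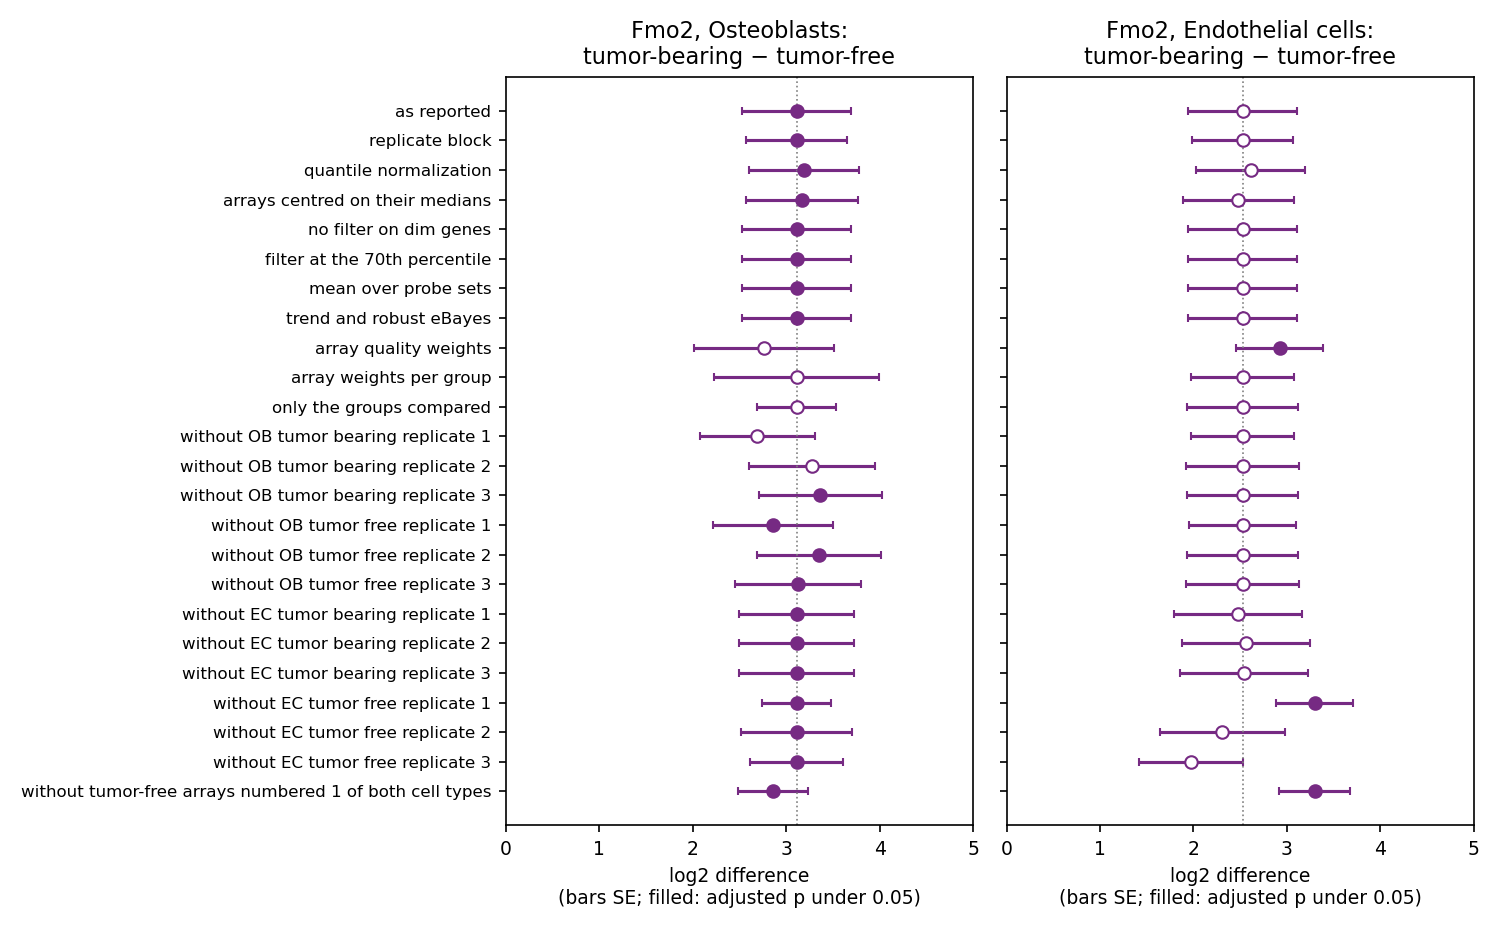
Log2 difference of Fmo2 (x axis) between tumor-bearing and tumor-free mice in osteoblasts (left) and endothelial cells (right) under each setting (rows), with the SE as bars and filled points where the adjusted p is under 0.05. Osteoblast differences lie between 2.69 and 3.37, and endothelial ones between 1.97 and 3.30, with the lowest value without tumor-free endothelial replicate 3.

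Marker lists also differed between the arrays on which Fmo2 was high and low, and their part in the results was not tested. The mean of 10 immediate early genes, which respond quickly to stimulation and to tissue dissociation, was 9.64, 9.72 and 9.59 in osteoblasts of tumor-bearing mice, against 9.16, 8.57 and 7.99 in those of tumor-free mice. In endothelial cells it was 9.66, 9.67 and 9.60 in tumor-bearing mice, against 9.63, 8.71 and 8.61 in tumor-free mice. The tumor-free endothelial array with the high Fmo2 value, replicate 1, was thus also the one with the high immediate early mean, whereas among tumor-free osteoblasts the array with the highest immediate early mean had the lowest Fmo2. In osteoblasts 2 of these 10 genes were higher in tumor-bearing mice, beside 4.01% of all genes tested. Among endothelial arrays 0 passed either way, beside 0.0241% of all genes tested.

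The mean of 7 smooth muscle and pericyte markers was 8.56, 8.31 and 7.34 in osteoblasts of tumor-bearing mice, against 6.70, 6.55 and 6.58 in those of tumor-free mice. Of the 7 genes 3 passed as higher, beside 4.01% of all genes tested. In endothelial cells the mean was 7.50, 7.52 and 7.19 in tumor-bearing mice, against 7.24, 6.50 and 6.38 in tumor-free mice. There 0 of 7 passed, beside 0.0241% of all genes tested. Among osteoblasts of tumor-bearing mice the order of the 3 arrays in this mean was that of Fmo1 and of Fmo2, as it was in the means of the osteoblast, endothelial, fibroblast, adipocyte and hematopoietic markers, and not in those of the chondrocyte markers and immediate early genes. The mean of 8 fibroblast and reticular stroma markers was 9.29, 8.73 and 8.48 there, against 7.90, 8.74 and 8.51 in tumor-free osteoblasts, and 0 of 7 tested members passed between these groups. On endothelial arrays that mean was 6.18, 6.22 and 5.97 in tumor-bearing mice, against 5.98, 5.40 and 5.37 in tumor-free mice. There too 0 of 7 passed, beside 0.0241% of all genes tested.

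Endothelial markers were read on the same arrays, and their part in the values of Fmo2 was not tested. Their mean over 10 genes was 5.45, 5.36 and 4.87 in osteoblasts of tumor-bearing mice, against 5.34, 5.92 and 5.38 in those of tumor-free mice. On endothelial arrays it was 9.87, 9.79 and 9.94 in tumor-bearing mice, against 10.00, 10.17 and 10.10 in tumor-free mice. These endothelial groups did not overlap, with the tumor-bearing one lower. Of the 10 genes 0 passed between tumor-bearing and tumor-free osteoblasts, and their median log2 difference was -0.38. The mean of 8 chondrocyte markers was 9.96, 10.76 and 10.68 in osteoblasts of tumor-bearing mice, against 10.20, 8.68 and 6.49 in those of tumor-free mice. Of the 8 genes 1 passed as higher, beside 4.01% of all genes tested. Hematopoietic markers had means of 6.81, 6.79 and 5.37 in tumor-bearing and 5.69, 8.05 and 7.76 in tumor-free osteoblasts, with 0 of 7 tested members past the threshold. Adipocyte marker means were 8.24, 7.68 and 7.51 in tumor-bearing and 7.63, 8.09 and 8.48 in tumor-free osteoblasts. In endothelial cells they were 8.61, 8.57 and 8.54 in tumor-bearing mice, against 8.42, 8.25 and 7.82 in tumor-free mice. Of 5 tested members 0 passed in either tumor comparison, where 4.59% of all genes passed in osteoblasts and 0.0241% in endothelial cells. Tumor-free osteoblast replicate 1 was the highest of its group for the chondrocyte markers and the lowest for the hematopoietic ones, and without it the difference of Fmo2 was 2.86 (adjusted p = 0.0175).

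**Figure D4:**
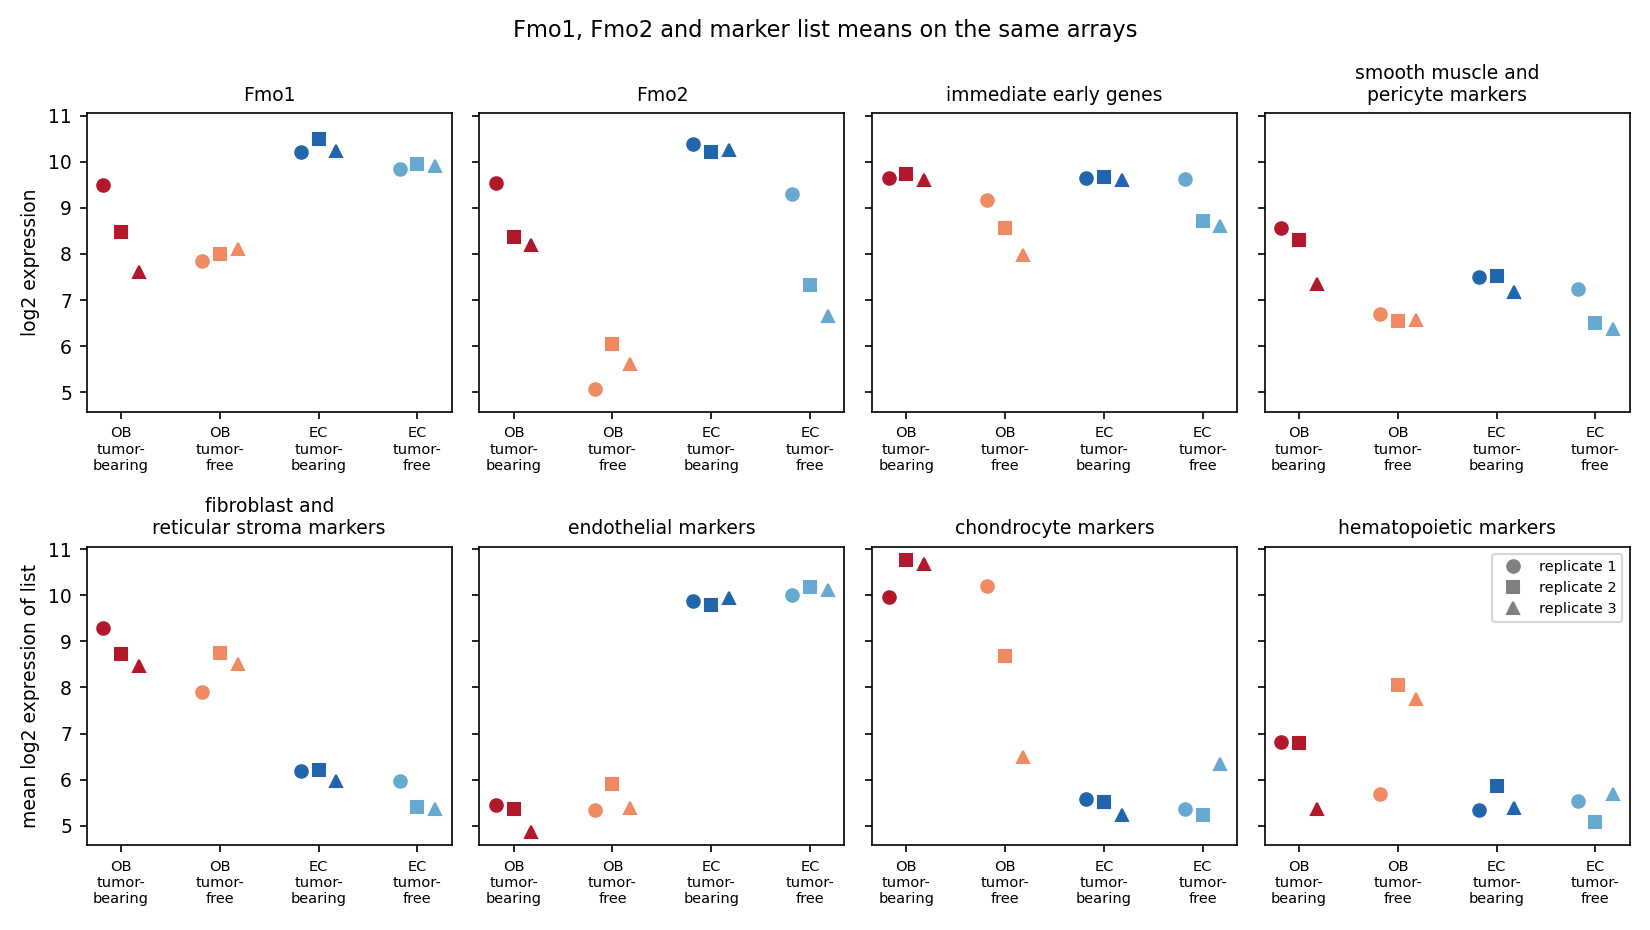
Fmo1, Fmo2 and the mean log2 expression of 6 marker lists (y axes) on the same 12 arrays, with replicates by symbol; OB stands for osteoblasts and EC for endothelial cells. Endothelial marker means lie between 4.87 and 5.92 on osteoblast arrays and between 9.79 and 10.17 on endothelial arrays, and immediate early means between 7.99 and 9.72.

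Other genes of NADPH supply, electron transfer, drug metabolism, the antioxidant response and taurine were described by lists chosen with earlier results known. Whether any of them acts together with a family member was not tested. In osteoblasts 1 of 10 tested genes of NADPH supply and electron transfer was higher in tumor-bearing mice, Me1, the NADPH-forming malic enzyme, at 8.44 ± 0.31 in tumor-bearing and 6.71 ± 0.74 in tumor-free mice (SD, n = 3 each; 3.33-fold, adjusted p = 0.0222 by limma). The list's median log2 difference was 0.20, beside -0.00 over all genes tested, of which 4.01% passed as higher. Among 15 other oxidative drug-metabolising enzymes, with a median of 0.25, Adh1, an alcohol dehydrogenase, was 2.88-fold higher (adjusted p = 0.0419 by limma). Of 12 cytochrome P450 genes, the other large family of oxygen-using drug-metabolising enzymes, 0 passed and the median was -0.05, and of 14 conjugating and hydrolysing enzymes 0 passed with a median of 0.07.

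Targets of Nrf2, the regulator of the antioxidant response, had a median of 0.29 in osteoblasts. Of 10 tested 2 passed as higher in tumor-bearing mice, beside 4.01% of all genes tested. Srxn1, sulfiredoxin, was at 8.02 ± 0.33 in tumor-bearing and 6.77 ± 0.35 in tumor-free mice (SD, n = 3 each; 2.38-fold, adjusted p = 0.00989 by limma), and Txnrd1, thioredoxin reductase, was 1.89-fold higher (adjusted p = 0.0377 by limma). Of the 4 tested genes of hypotaurine and taurine synthesis and uptake, whose pathway includes the reaction of FMO1, 0 passed and the median was 0.12. In endothelial cells 0 genes of any of these 6 lists passed between tumor-bearing and tumor-free mice by limma, where 0.0241% of all genes did. List medians there lay between -0.23 and 0.21. The tumor difference differed between cell types for 0 of the list genes, where 0.209% of all genes passed. With so few genes passing, these zeros say little of the lists. At an unadjusted p under 0.05 by limma the counts were 14 of 65 tested list genes in osteoblasts, 9 in endothelial cells and 9 for the difference of differences. The share of all genes under that cut was not counted, so these counts have no background to be read against.

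Between the cell types of tumor-free mice genes of 5 of these lists passed in both directions, and Nrf2 targets passed only as higher in osteoblasts, where 31% of all genes passed. In tumor-free mice 3 of 12 cytochrome P450 genes were higher in osteoblasts and 2 lower. Cyp4b1, a fatty acid and xenobiotic hydroxylase, was at 5.98 ± 0.17 in osteoblasts and 8.53 ± 0.31 in endothelial cells (SD, n = 3 each; 5.86-fold lower, adjusted p = 3.77e-06 by limma), while Cyp1b1 was 5.78-fold higher in osteoblasts (adjusted p = 0.00635 by limma) and Cyp27a1, a sterol hydroxylase, 1.60-fold higher (adjusted p = 0.00768 by limma). Of 15 other oxidative enzymes 2 were higher and 4 lower, with a list median log2 difference of 0.25, beside -0.03 over all genes tested. The 3 with the smallest p were lower in osteoblasts, as were Fmo1 and Fmo2, while the list median was not. Akr1b8, an aldo-keto reductase, was 8.88-fold lower, Adh1 4.49-fold lower and Maoa, monoamine oxidase A, 4.23-fold lower.

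Of the 4 tested genes of hypotaurine and taurine synthesis and uptake 1 was higher and 1 lower in osteoblasts of tumor-free mice, and 1 was higher and 0 lower in tumor-bearing mice. Over all genes tested 31% passed in tumor-free and 14.9% in tumor-bearing mice. Cdo1, which makes the precursor of hypotaurine from cysteine, was at 9.08 ± 0.39 in osteoblasts and 6.00 ± 0.29 in endothelial cells of tumor-free mice (SD, n = 3 each), 8.47-fold higher in osteoblasts (adjusted p = 1.14e-05 by limma). Slc6a6, the taurine transporter, was at 8.78 ± 0.66 and 10.41 ± 0.04 in the same groups, 3.09-fold lower in osteoblasts (adjusted p = 0.00395 by limma), the direction also seen for Fmo1. Of 10 genes of NADPH supply and electron transfer 1 was higher in osteoblasts (Me1, 2.57-fold) and 3 lower, among them Cyb5a, cytochrome b5, at 1.75-fold and Nnt, the mitochondrial transhydrogenase, at 1.94-fold. Of 14 conjugating and hydrolysing enzymes 1 was higher, Gstm5, a glutathione transferase, at 4.33-fold, and 3 were lower, with the sulfotransferase Sult1a1 at 4.43-fold and the epoxide hydrolase Ephx1 at 2.94-fold. Of 10 Nrf2 targets 2 were higher, Osgin1 at 1.57-fold and the metallothionein Mt1 at 3.23-fold.

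The genes with values most like those of Fmo1 and Fmo2 were found by centring each gene on its mean and taking the root mean square difference over the 12 arrays, which share their 4 groups. For Fmo1 they were Epas1, which encodes the hypoxia-inducible factor HIF-2α (root mean square difference 0.25 log2 units), Zeb1, a transcription factor (0.30), Ddx58, an RNA sensor (0.32), and Xrcc4, a DNA repair factor (0.32). Epas1 averaged 9.31 in osteoblasts of tumor-bearing and 8.70 in those of tumor-free mice, and 10.84 and 10.89 in endothelial cells of tumor-bearing and tumor-free mice. All 4 genes had the order of Fmo1 among osteoblasts of tumor-bearing mice, with Epas1 at 10.11, 9.32 and 8.51 on replicates 1, 2 and 3. They were picked for closeness on these same arrays, so the shared order follows in part from the choice and is no separate support.

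None of the genes compared came as close to Fmo2. Its SD over the 12 arrays was 1.91, beside 1.08 for Fmo1, and the measure is not scaled for spread. The nearest were the probe set annotated to Mir18 (0.83 log2 units), the homeobox gene Meox2 (0.88), Timp4, an inhibitor of matrix metalloproteases (0.89), and Cpeb2, an mRNA-binding protein (0.89), while Fmo1 and Fmo2 differed by 1.33. Tumor-free endothelial replicate 1 was the highest of its group for all of them, which were likewise picked for closeness on these same arrays. Timp4 stood at 9.15, 5.94 and 6.56 on the 3 tumor-free endothelial arrays and Meox2 at 7.51, 4.98 and 5.23, beside 9.30, 7.32 and 6.65 for Fmo2.

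**Figure D5:**
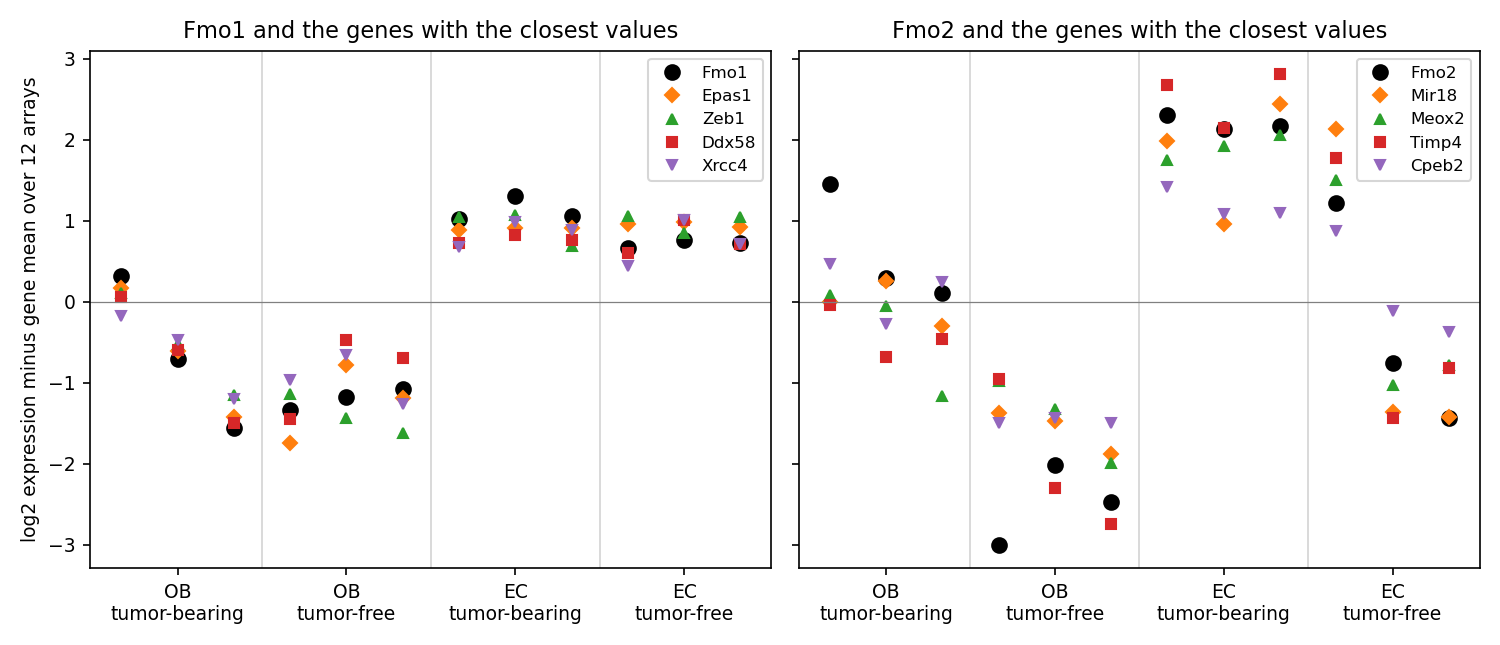
Log2 expression minus the gene's mean over 12 arrays (y axis) for Fmo1 (left) and Fmo2 (right) and the 4 genes closest to each, array by array within the 4 groups (x axis, replicates 1 to 3 from left to right); OB stands for osteoblasts and EC for endothelial cells. The genes near Fmo1 lie within root mean square differences of 0.25 to 0.32, and those near Fmo2 within 0.83 to 0.89.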

How the data were processed

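Gene expression of sorted osteoblasts and endothelial cells was measured on 12 arrays, 3 in each of 4 groups taken from the sample titles. RNA was amplified as cDNA and labelled with biotin, per the labels' protocols. The values deposited are log2 expression of 34760 probe sets, made with affy per the submitters' processing notes; version, background correction, normalization and genome build: not given in the sources used here. All columns were used. Of 66 pairs of arrays 0 held identical values.

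Gene symbols came from the annotation of the array platform: 21640 probe sets carry 1 symbol, 1321 several, and 11799 are unnamed there; 21553 of the first matched RefSeq by Entrez number. The probe set with the highest mean stood for a gene. A gene was tested if above the array's median on at least 3 of 12 arrays (12430 of 19937 genes; 3 of the 4 members). limma 3.58.1 in R 4.3.3 fitted 1 mean per group over all 12 arrays (8 residual and 2.89 prior degrees of freedom), two-sided, with Benjamini-Hochberg adjustment over all genes tested and a threshold of 0.05. Folds were computed from log2 differences. The fit was tested on simulated data.

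The members, lists and settings were chosen with earlier results of these data known. All 4 members are named, as are the 4 genes nearest to each tested member with an SD over the arrays of at least 0.5, and up to 3 called genes of each of 6 lists (83 genes) with the smallest p in the osteoblast tumor and the tumor-free cell type comparison. Marker lists number 8. Replicate numbers were not used to pair the samples in the main fit. Deviations of same-numbered arrays from their group means correlated at -0.26 to 0.11, above 0.1 in 1 of 18 pairs. These pairs include tumor-bearing with tumor-free arrays, and the values cannot settle whether arrays have mice in common.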

Additional observations from a re-analysis of the deposited data

How the results depend on the processing

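Of the differences of Fmo1, Fmo2 and Fmo5, those of Fmo1 between cell types passed under every alternative run; changes in the calls of Fmo2 stand beside its values above. Signs that turned belonged to differences that had not passed. With quantile normalization the difference of differences was -0.11 for Fmo1. With array quality weights it was -0.16 for Fmo2, and the endothelial tumor difference of Fmo5 was 0.12. Without the tumor-free arrays numbered 1, chosen after seeing the data, the difference of differences of Fmo2 was -0.44. With 1 array left out at a time it ranged from -0.18 to 1.14 for Fmo2, from -0.34 to 0.60 for Fmo1 and from -0.13 to 0.19 for Fmo5, and the tumor difference of Fmo5 ranged from -0.051 to 0.19 in osteoblasts and from -0.13 to 0.18 in endothelial cells.

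The family genes called numbered 1, 0, 0, 1 and 2 in the osteoblast tumor, endothelial tumor, difference of differences, tumor-bearing cell type and tumor-free cell type comparisons. With array quality weights they were 0, 1, 0, 2 and 1, with weights per group 0, 0, 0, 1 and 1, and without the tumor-free arrays numbered 1 1, 1, 0, 2 and 1. With only the groups compared they were 0, 0, 2 and 1 in the 4 comparisons of groups. With 1 array left out they ranged from 0 to 1, 0 to 1, 0 to 0, 1 to 2 and 2 to 2. The cause was not tested.

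All genes called numbered 570, 3, 26, 1854 and 3850 in the same order. Counts that moved by over 1.5 times were 349, 0 and 0 in the tumor comparisons and the difference of differences with the replicate number as a block. In the endothelial comparison and the difference of differences they were 0 and 14 with quantile normalization, 0 and 96 with median centring, 0 and 11 with the filter at the 70th percentile, and 7 and 41 with the mean over probe sets. The endothelial tumor count was 0 with trend and robust estimation. With no filter on dim genes the counts were 955 and 0 in the tumor comparisons and 6564 in tumor-free mice. With array quality weights they were 449 in the endothelial comparison, 324 for the difference of differences and 3733 in tumor-bearing mice, and with weights per group 130 and 38 in the tumor comparisons and 2529 in tumor-free mice. With only the groups compared they were 0 in the osteoblast comparison and 1911 in tumor-free mice. Without the tumor-free arrays numbered 1 the counts for both tumor comparisons and the difference of differences were 1421, 159 and 378. With 1 array left out the counts ranged from 111 to 1573, 0 to 61, 0 to 545, 1325 to 2376 and 2266 to 3921. In tumor-free mice median centring gave 785 genes higher and 2852 lower in osteoblasts, beside 1584 and 2266, with a median over all genes of -0.18, beside -0.03. Quantile normalization gave 368 higher and 184 lower in the osteoblast tumor comparison, beside 499 and 71.

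With the replicate block, Fmo2 in osteoblasts had adjusted p = 0.0249, and no call of a family gene changed. The number of arrays limits what can be detected; signal over background was not used here.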
